A study of Rattus norvegicus with 93 samples.

Results

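Femur bone marrow was compared between 4 rats given topotecan followed by oxaliplatin (topotecan/oxaliplatin, animals 51, 52, 57 and 58) and 4 rats given both vehicles in the same order (NaCl/D5W, animals 3, 4, 9 and 10), all sampled 6 h after dosing. These 8 arrays were chosen by the treatment and time in their sample records, out of 93 arrays in the series, and each array holds the marrow RNA of 1 rat. All rats were male Sprague-Dawley animals aged 8 weeks with an indwelling cannula in the femoral vein. Topotecan was given at 4.7 mg/kg in 0.9% NaCl and oxaliplatin at 15 mg/kg in 5% dextrose in water (D5W), each as an intravenous infusion of 30 min, and vehicle rats received the same infusions without a drug. Rats given 1 drug with the vehicle of the other serve below as comparisons (topotecan/D5W, NaCl/oxaliplatin and D5W/topotecan, 4 each at 6 h). In D5W/topotecan the drug was the second infusion. Rats given both vehicles or both drugs in the reverse order, and the combination at 1 and 24 h, serve as comparisons too.

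Topotecan traps topoisomerase I, the enzyme that relaxes DNA ahead of polymerases, on the strand it has cut, and a replication fork or a transcribing polymerase that meets the trapped complex stalls or breaks the DNA. Oxaliplatin is a platinum compound whose adducts link bases of DNA. Marrow is where red cells, white cells and platelets are made, its precursors divide fast, and damaged DNA in such cells stabilizes p53, which stops the cell cycle or starts cell death.

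A probe set, the group of probes on the array that reads a transcript, counted as changed when limma gave a Benjamini-Hochberg adjusted p under 0.01 and the fold was above 2. By this rule 451 of 12532 probe sets (3.60%) were higher and 521 (4.16%) were lower in topotecan/oxaliplatin than in NaCl/D5W at 6 h, so that 46.4% of the changed probe sets were higher. Centering each array on its own median moved this split to 546 higher and 408 lower. Without a minimum fold, 1318 of 7810 genes (16.9%) rose and 2496 (32.0%) fell, and these shares are the background for every count of list members below; the median log2 change of all genes was -0.09. Levels are log2 signals after normalization, listed in the order of the animal numbers, and a log2 change of 1 is a doubling. Arrays of a group correlated at 0.973 or more and arrays of different groups at 0.919 to 0.939. In bulk marrow, fewer cells of a type and less RNA per cell cannot be told apart.

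The marrow markers were present, with S100a8 and S100a9 of late neutrophils, Alas2 and Ahsp of erythroid cells and Pf4 and Ppbp of megakaryocytes all above a mean of 13 on the log2 scale in both groups, while none of 5 markers of neutrophil precursors and 1 of 5 of B cell precursors had a probe set in the deposited table. The mean level of 4 megakaryocyte markers was 12.59 to 13.11 in vehicle rats and 13.26 to 13.46 in treated rats, that of 4 macrophage markers 10.84 to 11.19 and 11.22 to 11.58, and that of 3 endothelial markers 8.18 to 8.76 and 8.83 to 9.14. The mean of 4 erythroid markers was lower after treatment, at 12.96 to 13.22 in vehicle rats and 12.70 to 12.86 in treated rats. Of these 4 only Epor fell (-1.37), Alas2 rose (0.27), and Slc4a1 (-0.13) and Ahsp (-0.14) did not pass. The 1 measured marker of B cell precursors, Cd79b, was at 10.39 to 11.18 and 11.23 to 11.62, and that of adipocytes, Fabp4, at 9.94 to 10.41 and 12.00 to 12.63. None of these ranges overlapped between the groups, although Cd79b did not pass in limma (0.47, adjusted p = 0.0255). Ranges did overlap for late neutrophil markers (13.88 to 14.02 in vehicle rats, 13.99 to 14.15 in treated rats). They also overlapped for T or NK cell markers (7.81 to 8.06, 8.03 to 8.65) and osteoblast markers (10.02 to 10.97, 10.37 to 11.68). How many of all genes lack overlap was not counted, and the part of such shifts in the gene lists below was not tested. Animal 52 of topotecan/oxaliplatin stood apart in skeletal muscle transcripts. The mean level of 20 measured muscle genes was 10.03 in this rat and 6.08 to 6.69 in the other 7, and Acta1, the actin of muscle fibers, was at 12.12 against 4.39 to 7.42 in the others. Without animal 52 the counts were 445 probe sets higher and 508 lower.

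The gene with the largest rise was Mmp12, a macrophage elastase. Its level was 6.13, 5.85, 5.98 and 5.61 in the vehicle rats and 11.84, 11.85, 11.29 and 10.54 in the treated rats. No treated rat came near the vehicle range, and the difference was 5.49 ± 0.33 (SE) on the log2 scale, a 44.9-fold rise (adjusted p = 3.79e-16). Hspa1a, the inducible HSP70 chaperone, stood at 7.04, 7.02, 6.68 and 6.77 in NaCl/D5W and at 11.44, 12.71, 12.73 and 11.13 in topotecan/oxaliplatin. Its treated levels split into a pair above 12 and a pair below, and all of them lay far above vehicle (5.13 ± 0.60, adjusted p = 3.33e-09). Ccl2, the chemokine that draws monocytes, was at 6.64, 5.59, 6.44 and 6.11 in vehicle rats and at 11.09, 10.91, 10.97 and 10.93 in treated rats. Here the spread was on the vehicle side, and the treated rats differed little from each other (4.78 ± 0.64, adjusted p = 6.55e-08).

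Among the 15 rising genes of largest change were also Gdf15, a cytokine induced by p53 and by cell stress (4.26 ± 0.41), Akr1b8, an aldo-keto reductase (4.18 ± 0.38), and Ccn2, a matrix-associated growth factor (3.96 ± 0.31). Follistatin (Fst), which binds and blocks activins, rose by 3.88 ± 0.32 and the smooth muscle protein Tagln by 3.74 ± 0.23. Timp1, which inhibits matrix metalloproteinases, rose by 3.38 ± 0.27. The other 6 were Atf3 (3.13), Prss23 (2.99), Ccl4 (2.84), Bmp4 (2.64), Rgs1 (2.61) and Pls3 (2.60). In each of the 15 the lowest treated rat was above the highest vehicle rat, which the rule that picked them required, so their exact two-sided permutation p is the smallest that 4 against 4 rats allow, 0.0286.

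The gene that fell most was Bex4, a small brain-expressed X-linked family protein. Vehicle rats had 11.08, 10.83, 10.22 and 10.76, and treated rats had 6.46, 5.75, 6.05 and 5.70. The highest treated rat was almost 4 log2 units below the lowest vehicle rat, and the difference was -4.73 ± 0.27 (26.6-fold lower, adjusted p = 7.28e-17). Car1, the carbonic anhydrase of red cell precursors, was among the brightest signals in vehicle rats at 13.71, 13.83, 13.71 and 13.92, and stood at 10.21, 10.42, 10.65 and 10.02 after treatment. All treated rats were lower by about the same amount (-3.47 ± 0.28, 11.1-fold, adjusted p = 5.48e-13). Tfr2, the iron sensor of erythroid cells, was at 9.17, 8.97, 9.24 and 9.54 against 6.16, 6.18, 6.13 and 6.13. The treated rats were nearly identical (-3.08 ± 0.21, adjusted p = 5.06e-15).

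Among the other leading falling genes, Pklr, the pyruvate kinase of red cells and liver, fell by 2.51, and Uros, an enzyme of heme synthesis, fell by 2.24. Reln, a secreted matrix protein, fell by 2.94, Spint1, a protease inhibitor, by 2.49, and Mgst3, a microsomal glutathione transferase, by 2.49. The transcription factor Nfia fell by 2.45 and the sodium pump subunit Atp1b2 by 2.29. Diaph3, an actin nucleator of dividing cells, fell by 2.17, and Mnd1, a protein of meiotic recombination, fell by 2.05. Poc1a (-2.13), Rgs12 (-2.12) and Tgfbi (-2.02) completed the 15, again with no overlap between the groups by the rule.

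**Figure D1:**
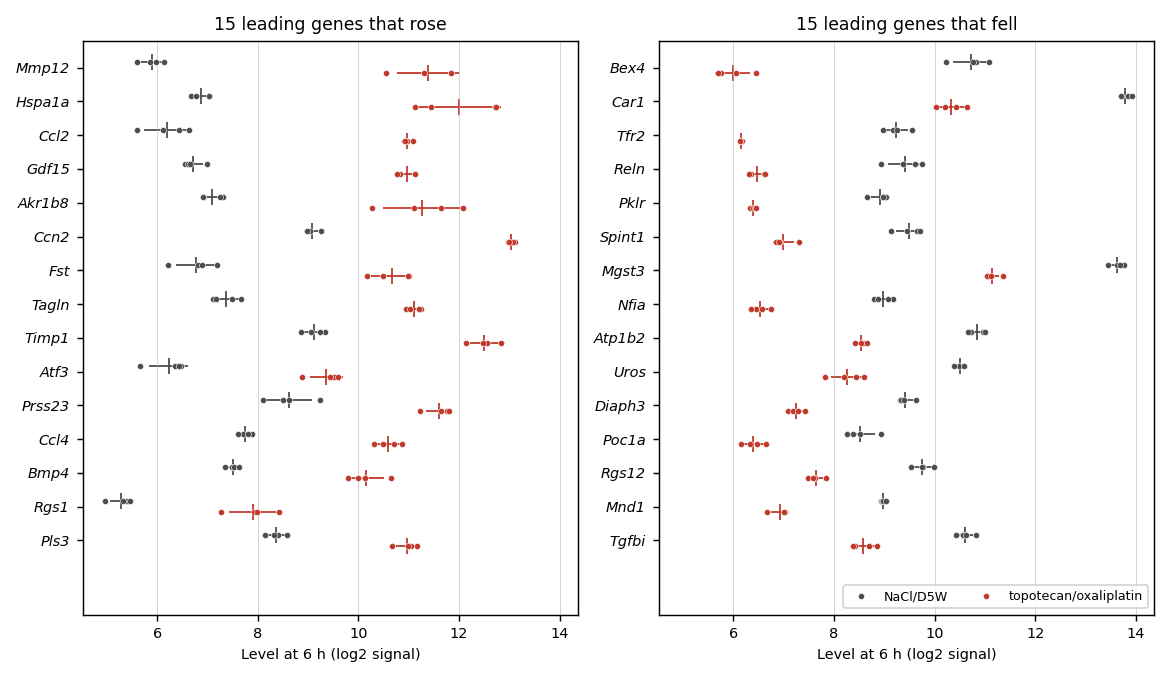
Level in each rat at 6 h (log2 signal) of the 15 genes that rose most (left) and the 15 that fell most (right), with the gene of largest change on top. Points are rats, vertical ticks are group means and horizontal bars are 1 SD (n = 4). Mmp12 and Hspa1a lie above 10 in all treated rats and near 6 to 7 in vehicle rats, and Car1 and Mgst3 fall from above 13 to between 10 and 12.

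Targets of p53 rose as a list. Of 18 measured genes, 13 rose and 1 fell, with a median of 0.79. Cdkn1a, the p21 inhibitor of cyclin-dependent kinases, was at 7.99, 7.92, 7.25 and 7.07 in vehicle rats and at 10.14, 9.96, 9.65 and 10.16 in treated rats. Every treated rat was above every vehicle rat by more than 1 log2 unit (2.42 ± 0.23, adjusted p = 3.42e-11). The kinase Plk2 (2.20), the AKT inhibitor Phlda3 (2.17), cyclin G1 (Ccng1, 1.66), the nuclease Aen (1.53) and Mdm2, the ligase that degrades p53 (1.03), rose as well. Of the death genes on the list, Bbc3 (PUMA) rose by 0.46 and the receptor Fas by 0.36. Ddb2, a sensor of damaged DNA, went the other way: it was at 8.04, 7.95, 8.25 and 8.42 in vehicle rats and at 7.44, 7.08, 7.40 and 7.19 in treated rats. The groups did not overlap, and the change was -0.89 ± 0.13 (adjusted p = 2.12e-07). Gadd45a (-0.02) and Sesn1 (0.02) did not pass the test. In the BCL2 family and caspases, 4 of 16 rose and 1 fell (median 0.17), led by the survival protein Bcl2a1 (1.76). The number that rose was 8 after a second quantile normalization and 7 with arrays centered on their medians.

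Immediate early genes, the transcription factors and phosphatases switched on within minutes of a stimulus, were still raised: 18 of 25 rose and 2 fell (median 0.82). Jun was at 7.38, 7.62, 8.09 and 8.06 in vehicle rats and at 10.18, 10.37, 10.04 and 10.16 in treated rats. The lowest treated rat was almost 2 log2 units above the highest vehicle rat (2.40 ± 0.33, adjusted p = 1.05e-07). Fos rose by 2.23 ± 0.32, Egr2 by 1.42, Maff by 1.41 and Egr1 by 1.34. The 2 that fell were Myc (-0.67), the driver of cell growth, and Klf4 (-0.64), a factor of monocytes and quiescent cells.

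The heat shock list was split. Of 20 chaperones and co-chaperones, 8 rose and 4 fell, with a median of 0.23. Besides Hspa1a, the risers above 2-fold were Hspb1 (HSP27, 1.22 ± 0.20), Bag3, which links HSP70 to autophagy (1.21 ± 0.15), Hspa2 (1.11) and Hsph1 (HSP110, 1.07 ± 0.25). Bag3 was at 8.17, 8.12, 7.99 and 7.96 in vehicle rats and at 8.96, 9.42, 9.49 and 9.22 in treated rats. In contrast Fkbp4, a co-chaperone of HSP90, was at 10.15, 10.27, 9.58 and 9.65 against 9.00, 8.92, 9.20 and 9.16. Its groups did not overlap either (-0.84 ± 0.14, adjusted p = 2.48e-06), and Hsp90ab1 (-0.54), Ahsa1 (-0.35) and Hspd1 (-0.24) fell with it. The promoters of Bag3 (chr1:192533210-192533509, plus strand) and Fkbp4 (chr4:163397869-163398168, minus strand; RefSeq, build GRCr8, 250 bases before to 50 after the start) are shown because both hold the paired heat shock element letters GAANNTTC, in capitals, although the genes moved in opposite directions.
Bag3: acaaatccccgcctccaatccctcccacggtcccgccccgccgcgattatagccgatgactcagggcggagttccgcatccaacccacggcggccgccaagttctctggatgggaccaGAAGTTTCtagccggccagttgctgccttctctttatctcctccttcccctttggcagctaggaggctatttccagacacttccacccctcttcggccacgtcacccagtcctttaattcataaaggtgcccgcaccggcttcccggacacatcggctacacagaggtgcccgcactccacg
Fkbp4: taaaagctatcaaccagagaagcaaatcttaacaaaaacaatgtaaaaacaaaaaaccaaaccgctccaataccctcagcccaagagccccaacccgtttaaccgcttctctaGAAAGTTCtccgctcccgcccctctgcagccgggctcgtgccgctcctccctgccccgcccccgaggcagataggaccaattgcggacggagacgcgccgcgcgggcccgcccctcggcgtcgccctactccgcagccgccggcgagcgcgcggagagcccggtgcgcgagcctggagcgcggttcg
Searched on both strands, GAANNTTC was found in 11 of the 18 heat shock promoters at hand (61.1%) and in 8.59% of 33469 rat promoters. Among promoters of tested genes the share was 5.59%. Of the 11 heat shock genes with GAANNTTC, 4 rose and 2 fell, and of the 7 without it, 3 rose and 2 fell.

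Genes of the oxidant and metal response rose in 11 of 16 cases and fell in 1 (median 0.67). Heme oxygenase (Hmox1) was at 11.06, 11.33, 11.07 and 11.72 in vehicle rats and at 13.23, 13.41, 13.28 and 13.37 in treated rats. The gap between the groups was over 1 log2 unit in every pairing of rats (2.03 ± 0.14, adjusted p = 5.93e-15). The metallothionein Mt2A (2.18), the zinc exporter Slc30a1 (1.35), sulfiredoxin (Srxn1, 1.02) and the quinone reductase Nqo1 (0.95) rose, whereas Gclc, which limits glutathione synthesis, fell by 0.99. The antioxidant response letters TGANNNNGC, which are short and common, were in 11 of 15 promoters of the list (73.3%) against 40.5% of all promoters. In promoters of tested genes the share was 43.9%. Of the hypoxia list 9 of 12 rose and 1 fell, led by the vasodilator peptide Adm (2.32) and the lipase inhibitor Angptl4 (2.22).

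Of 31 chemokines and cytokines 19 rose and none fell, with a median of 0.70. After Ccl2, the largest rises were those of Ccl4 (2.84 ± 0.39) and Ccl7 (2.58 ± 0.30), both attractants of monocytes, and of Cxcl1 (2.16 ± 0.38), which attracts neutrophils. Cxcl1 was at 5.88, 6.03, 5.80 and 6.07 in vehicle rats and at 8.09, 7.28, 8.10 and 8.93 in treated rats, with animal 52 the lowest and animal 58 the highest of the treated. The alarm cytokine Il33 rose by 1.85, Il1b by 1.70, Cxcl10 by 1.66, Il1a by 1.34 and Tnf by 1.23. Il6 stood 0.66 higher but did not pass (adjusted p = 0.0983), and Kitlg, the stem cell factor, was 0.47 higher (adjusted p = 0.0186).

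Receptors for these ligands rose in 12 of 21 cases, led by Il6st, the shared signaling chain of the IL-6 family (2.03 ± 0.15), Ccr1 (1.69) and the decoy receptor Il1r2 (1.42). Those that fell were Ccr2, the receptor for Ccl2, and Epor, the receptor for erythropoietin. Ccr2 was at 10.72, 10.94, 11.28 and 10.89 in vehicle rats and at 9.18, 9.53, 9.61 and 9.82 in treated rats. Ligand and receptor thus moved in opposite directions in all treated rats (Ccr2 -1.42 ± 0.28, adjusted p = 4.31e-05). Among 20 NF-kB response genes 10 rose and none fell (median 0.47), with Cd83 at 1.23, mitochondrial superoxide dismutase (Sod2) at 1.18, Icam1 at 0.98 and the feedback inhibitor Nfkbia at 0.81. Of 19 glucocorticoid response genes 9 rose, among them the EGF receptor inhibitor Errfi1 (1.92), and 1 fell, the co-chaperone Fkbp5 (-0.57).

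Interferon-stimulated genes were raised at 6 h in 21 of 40 cases and lowered in none (median 0.88). Isg15, the ubiquitin-like protein that interferon induces, was at 8.71, 8.35, 7.95 and 8.87 in vehicle rats and at 10.25, 11.70, 10.29 and 10.94 in treated rats. Animal 52 was the highest of the treated rats here and for 28 of the 40 genes, and without it 16 rose and the median was 0.81. Isg15 rose by 2.32 ± 0.50 (adjusted p = 0.000148), the antiviral GTPase Mx1 by 2.31 ± 0.50, Oasl by 2.23 ± 0.27 and Ifit3 by 2.18 ± 0.48. Errors were wide on this list, and Ifi44l (0.99), Mx2 (1.11) and Herc6 (1.32) were higher without passing. The promoters of Ifit3 (chr1:241527076-241527375, plus strand) and Oas1a (chr12:41330216-41330515, plus strand; RefSeq, GRCr8) are printed with their matches to the interferon response letters TTTCNNTTT in capitals, on either strand. The 15 capitals of Oas1a are a pair of overlapping matches, read on the other strand.
Ifit3: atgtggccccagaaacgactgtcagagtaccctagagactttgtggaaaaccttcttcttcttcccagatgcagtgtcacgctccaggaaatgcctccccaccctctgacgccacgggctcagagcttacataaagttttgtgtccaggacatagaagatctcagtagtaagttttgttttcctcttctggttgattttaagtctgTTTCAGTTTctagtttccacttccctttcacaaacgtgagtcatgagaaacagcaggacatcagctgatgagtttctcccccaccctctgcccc
Oas1a: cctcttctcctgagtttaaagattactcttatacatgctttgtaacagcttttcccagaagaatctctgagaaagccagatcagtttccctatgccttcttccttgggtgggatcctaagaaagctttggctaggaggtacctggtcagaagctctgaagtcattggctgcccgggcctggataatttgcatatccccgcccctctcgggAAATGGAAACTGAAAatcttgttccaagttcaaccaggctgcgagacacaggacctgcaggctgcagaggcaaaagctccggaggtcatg
The letters were in 18 of 30 promoters of the list (60%), in 11.8% of all promoters and in 8.18% of those of tested genes. Of the 18 genes with them 12 rose (median 1.02), and of the 12 without them 3 rose (median 0.26); this is a description of these promoters, and no test was run.

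Genes of DNA replication fell almost without exception: 48 of 49 fell and none rose, with a median of -1.11. Ccne1, the cyclin that opens S phase, was at 10.85, 10.80, 10.51 and 10.82 in vehicle rats and at 8.72, 8.68, 8.89 and 8.63 in treated rats, and Mcm6, a subunit of the replicative helicase, was at 9.86, 9.76, 9.90 and 9.99 against 8.01, 7.90, 8.19 and 8.12. In both genes the groups were separated by over 1.5 log2 units (Ccne1 -2.01 ± 0.15, Mcm6 -1.82 ± 0.13, adjusted p = 2.45e-14). The catalytic polymerase subunit Pola1 fell by 1.81, the methylation reader Uhrf1 by 1.65 and Gins1 by 1.58. The smallest changes were those of Rpa2 (-0.50), Pcna (-0.52) and E2f2 (-0.35), and E2f2 alone did not pass. The Mcm6 promoter (chr13:42404303-42404602, minus strand; RefSeq, GRCr8) is shown with a pair of overlapping E2F letters TTTNGCGC, one on each strand, in capitals.
Mcm6: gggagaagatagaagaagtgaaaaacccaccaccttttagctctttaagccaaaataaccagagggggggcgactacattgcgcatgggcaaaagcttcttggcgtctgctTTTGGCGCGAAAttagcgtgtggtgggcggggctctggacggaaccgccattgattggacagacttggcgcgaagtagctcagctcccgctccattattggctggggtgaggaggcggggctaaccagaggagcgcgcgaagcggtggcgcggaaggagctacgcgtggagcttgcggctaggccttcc
TTTNGCGC was in 15 of 41 replication promoters (36.6%) against 1.28% of all promoters and 2.56% of those of tested genes. All 41 of these genes fell, with a median of -1.28 for those with the letters and -0.94 for the rest.

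Mitosis genes fell as well. Of 45 measured genes 42 fell and 1 rose, and the median was -1.35. Ccna2, cyclin A, was at 11.53, 11.49, 11.28 and 11.56 in vehicle rats and at 9.40, 9.71, 9.78 and 9.48 in treated rats (-1.87 ± 0.15, adjusted p = 1.93e-13). Plk1, the kinase that drives mitotic entry, was at 11.92, 11.66, 11.59 and 11.79 against 9.82, 10.00, 10.19 and 9.68 (-1.82 ± 0.15, adjusted p = 9.09e-13). For both genes all treated rats were below all vehicle rats. The motor protein Kif22 (-1.85), the checkpoint kinases Bub1b (-1.82) and Ttk (-1.62) and the mitotic kinase Cdk1 (-1.54) fell alongside. Mki67, the common proliferation marker, fell by 0.69 only. Cdc25b, a phosphatase that activates cyclin-dependent kinases, rose by 0.39, and Gtse1 (0.02) and securin (Pttg1, -0.16) did not pass. The Plk1 promoter (chr1:186147408-186147707, plus strand; RefSeq, GRCr8) is shown with the cell cycle homology letters TTTGAA in capitals, which begin at base 7 of the gene.
Plk1: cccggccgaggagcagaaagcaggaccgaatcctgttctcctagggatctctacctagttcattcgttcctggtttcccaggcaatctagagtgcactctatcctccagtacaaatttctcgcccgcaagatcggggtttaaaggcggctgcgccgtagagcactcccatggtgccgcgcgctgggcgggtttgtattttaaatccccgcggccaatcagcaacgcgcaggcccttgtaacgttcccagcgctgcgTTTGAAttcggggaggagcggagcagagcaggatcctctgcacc
TTTGAA was in 25 of 40 mitosis promoters (62.5%) against 18.3% of all, and CCAAT in 30 of 40 (75%) against 37.5%. For promoters of tested genes these shares were 11.6% and 38.7%. Of the genes with TTTGAA 24 fell (median -1.41), and of the 15 without it 13 fell (median -1.25). By comparison, the AP-1 letters TGANTCA were in 1 of 17 immediate early promoters (5.88%, against 7.33% of all and 5.18% of those of tested genes) and the GATA letters AGATAA in 2 of 18 promoters of heme and iron genes (11.1%, against 11.6% and 6.41%). No match says only that these letters are not in the 300 bases searched.

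DNA repair genes fell in 35 of 38 cases and rose in 1 (median -0.79). Fancd2, the monoubiquitinated core of crosslink repair, was at 9.59, 9.72, 9.75 and 9.94 in vehicle rats and at 8.16, 8.17, 8.22 and 8.07 in treated rats. The treated rats were tightly grouped (-1.60 ± 0.10, adjusted p = 8.59e-16). Prkdc, the DNA-dependent kinase of end joining (-1.44), the nuclease Exo1 (-1.21) and the checkpoint kinases Chek2 (-1.13) and Chek1 (-1.12) followed, and Ercc3, a helicase of excision repair, rose by 0.33. Of the enzymes closest to topotecan, Tdp1, which removes trapped topoisomerase I from DNA, fell by 1.10 ± 0.11 and Top2a by 1.64 ± 0.14. Top1 itself, the drug's target, was at 11.58, 11.82, 11.86 and 12.02 against 11.53, 11.69, 11.84 and 11.71. Of these and their relatives 3 of 5 fell, and the Top1 ranges overlapped (-0.12 ± 0.11, adjusted p = 0.36).

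The histone list had no common direction, with 3 of 12 up and 4 down. H3c1 was at 8.57, 8.52, 8.15 and 8.16 in vehicle rats and at 9.88, 10.41, 10.32 and 10.65 in treated rats, a rise of 1.97 ± 0.17 (adjusted p = 1.5e-12). H4f3 rose by 1.68, and the linker histone H1f10 fell by 1.13. The H3c1 and H4f3 signals thus went up in all treated rats while replication enzymes went down in the same rats.

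Red cell genes fell in part. Of 20 genes of heme synthesis and iron handling 15 fell and 1 rose (median -0.89). After Tfr2 and Uros came the iron reductase Steap3 (-1.62), the mitochondrial transporter Abcb10 (-1.42), Cpox (-1.33), Alad (-1.20) and Ppox (-1.11), the last 3 enzymes of the heme pathway. Alas2, its rate-limiting first enzyme in erythroid cells, rose slightly: it was at 13.72, 13.83, 13.59 and 13.72 in vehicle rats and at 13.88, 14.04, 14.05 and 13.96 in treated rats (0.27 ± 0.07, adjusted p = 0.00152). Of 24 globin genes and erythroid regulators 12 fell and 3 rose (median -0.49), and the count that fell was 6 without animal 58 and 7 with arrays centered on their medians. Epor was at 11.55, 11.38, 10.93 and 11.05 in vehicle rats and at 9.96, 9.66, 10.13 and 9.67 in treated rats (-1.37 ± 0.15, adjusted p = 6.2e-10). The repressor Bcl11a (-1.15), Klf1 (-0.67) and Tal1 (-0.52) fell, whereas the embryonic globin gene Hbe1 rose from 7.16, 8.02, 7.74 and 7.47 to 8.69, 9.29, 9.30 and 9.78 (1.67 ± 0.20, adjusted p = 3.83e-09). Hbb was at 15.32 to 15.34 in vehicle rats and 15.33 to 15.35 in treated rats, a difference of 0.01 at the top of the scale (adjusted p = 0.801).

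Of 18 genes of the erythrocyte membrane and its skeleton 7 fell and none rose (median -0.48). The share that fell was little above the 32.0% of all genes. Tlcd4 (-1.89), dematin (Dmtn, -1.50) and ankyrin (Ank1, -1.03) fell, while Slc4a1, the anion exchanger band 3, was at 13.03, 13.32, 13.05 and 13.28 against 12.99, 13.03, 13.07 and 13.06. Those levels overlapped (-0.13 ± 0.15, adjusted p = 0.484).

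Smaller but broad decreases were seen in mitochondrial and ribosomal proteins. Of 71 subunits of oxidative phosphorylation 65 fell (median -0.44), led by Ndufs8 (-0.86), and of 72 mitochondrial ribosomal proteins 58 fell (median -0.48), among them Mrps15 (-0.93) and Mrpl23 (-0.87). The single subunit that rose, Cox6a2, is a muscle isoform, and its level was 9.26 in animal 52 and 6.36 to 6.87 in the other 7 rats. Of 42 cytosolic ribosomal proteins 34 fell (median -0.25; 23 with arrays centered on their medians), and Rpl39l1 rose by 1.11. Of 36 proteasome subunits 16 fell and 2 rose. In the 3 lists that follow the share that fell was below the 32.0% of all genes. Of 22 genes of ribosome biogenesis 6 fell (3 without animal 51) and 2 rose. Of 22 stress genes of the endoplasmic reticulum and amino acid supply 3 rose, led by Ddit3 (CHOP, 0.69), and 2 fell; without vehicle animal 4 the number that rose was 1. Of 13 cholesterol synthesis genes 3 fell.

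**Figure D2:**
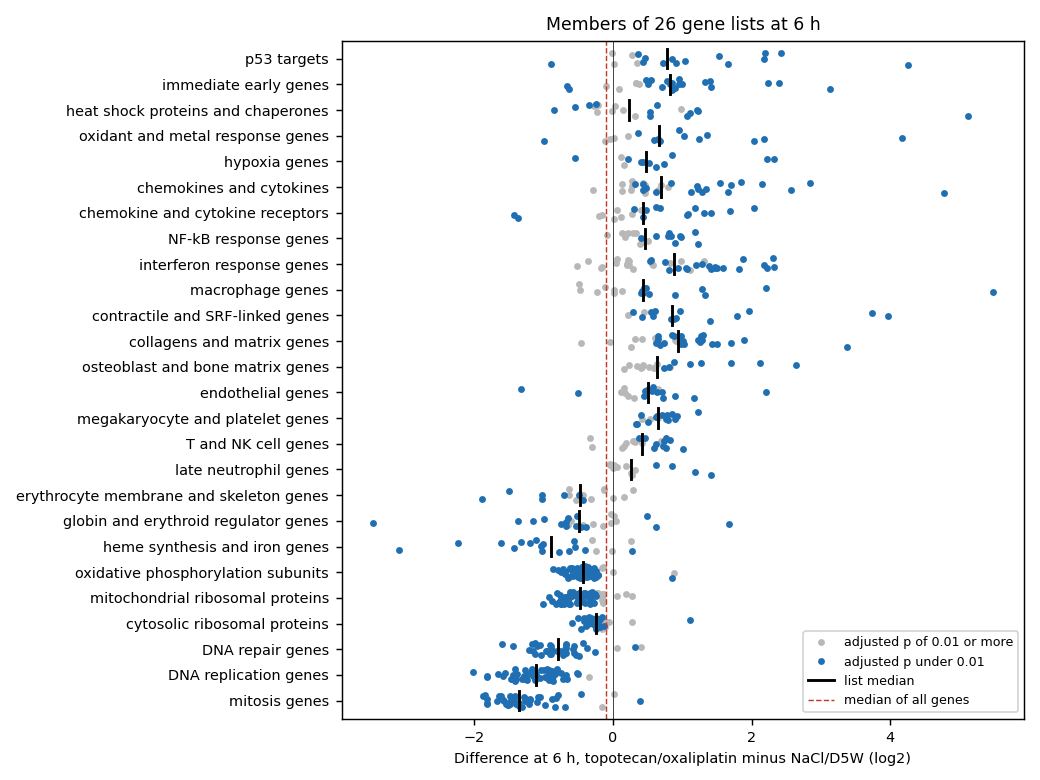
Each point is a gene, placed by its log2 difference at 6 h, topotecan/oxaliplatin minus NaCl/D5W, in 26 gene lists; blue points have an adjusted p under 0.01, black bars are list medians and the dashed line is the median of all genes (-0.09). Replication and mitosis genes lie nearly all to the left, with medians of -1.11 and -1.35, while matrix, interferon and immediate early genes lie to the right.

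Genes of macrophages rose in 11 of 18 cases and fell in none (median 0.43). This count was 6 without animal 52, 6 without animal 58, 6 without vehicle animal 4 and 7 without vehicle animal 9. After Mmp12, the hyaluronan receptor Lyve1, which lymphatic and sinus endothelium also express, rose by 2.21 ± 0.23, and Spic, the factor of iron-recycling macrophages, rose by 1.34 ± 0.22. The complement genes C1qa, C1qb and C1qc rose by 0.41 to 0.45. Monocyte genes were mixed, with 2 of 13 up and 4 down, and Irf8, which monocyte precursors need, fell by 0.88.

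In the neutrophil line, the early granule gene Fcnb was at 13.89, 13.95, 13.76 and 13.54 in vehicle rats and at 12.23, 11.94, 12.08 and 12.27 in treated rats. All treated rats were lower (-1.66 ± 0.25, adjusted p = 5.85e-07), and Gfi1 (-0.67) and Cebpe (-0.43), factors of granulocyte precursors, fell too, 3 of 6 on the list, while the protease Ctsc rose by 0.66. Of 13 late neutrophil genes 4 rose and none fell: Il1r2 (1.42), Cxcr2 (1.18), Mmp9 (0.85) and Mmp8 (0.62). The calgranulins S100a8 (0.06) and S100a9 (0.02) did not pass.

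Platelet and megakaryocyte genes rose in 14 of 17 cases and fell in none, by small amounts (median 0.65). The vesicle protein Rab27b led with 1.22 ± 0.21, followed by integrin alpha IIb (Itga2b, 0.92 ± 0.16) and P-selectin (Selp, 0.89). Of 21 genes of T and NK cells 10 rose and none fell (median 0.42), with the NK receptor Klrd1 at 1.01 and perforin (Prf1) at 0.83, and the count was 6 without animal 52. B cell genes had 3 of 13 up, among them Ms4a1 (CD20, 1.18) and the receptor Il7r (1.09), and 2 down, Lef1 (-0.76) and Foxp1 (-0.40, and 0.0039 in its probe set of highest variance). Mast cell, basophil and eosinophil genes had 3 of 14 up, with the tryptase Tpsab1 at 1.61 ± 0.51, and 1 down. Of 10 stem and progenitor genes 3 rose and 5 fell, and the 3 that rose became 1 without animal 52, without vehicle animal 4 or after a second quantile normalization.

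Matrix genes rose. Of 30 genes of collagens and matrix 22 rose and none fell (median 0.94), Timp1 ahead of laminin beta 1 (Lamb1, 1.88) and the protease Htra1 (1.70). Of 16 contractile genes and targets of the serum response factor 14 rose and none fell (median 0.86). Ccn2, which is on this list, was at 9.26, 9.02, 9.03 and 8.99 in vehicle rats and at 12.98, 13.11, 13.07 and 12.99 in treated rats, and the treated rats were closely grouped (adjusted p = 2.38e-13). Its relative Ccn1 rose by 1.96. Osteoblast and bone genes rose in 8 of 19 cases and fell in none (median 0.64), with the bone morphogenetic proteins Bmp4 (2.64 ± 0.18) and Bmp2 (2.13 ± 0.20) and osteopontin (Spp1, 1.70 ± 0.39) in front. Bmp2 was at 6.05, 6.54, 6.45 and 6.40 in vehicle rats and at 8.38, 8.60, 8.41 and 8.56 in treated rats. The structural genes of bone, Col1a1 (0.23 ± 0.46) and Bglap (0.43 ± 0.43), did not pass.

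Endothelial genes rose in 12 of 20 cases and fell in 2 (median 0.51). Lyve1 and claudin 5 (Cldn5, 1.18) led the risers, and those that fell were Stab2, a scavenger receptor of sinus endothelium, and Icam2 (-0.50). Stab2 was at 9.28, 8.66, 8.80 and 9.39 in vehicle rats and at 7.65, 7.79, 7.88 and 7.52 in treated rats (-1.32 ± 0.22, adjusted p = 3.6e-06). The niche genes Jag1 (1.37) and Cxcl12 (0.62) were among 5 of 12 stromal niche genes that rose (8 with arrays centered on their medians). Fabp4, a lipid carrier of fat and endothelial cells, rose by 2.02 ± 0.20 and was among 2 of 10 adipocyte genes that rose, while the other defining adipocyte markers had no probe set in the table. Of 20 skeletal muscle genes 1 rose (Tnnc1, 0.78) and 1 fell (Myh1, -0.66, but 0.80 in its probe set of highest variance); their median was 0.90 with animal 52 and -0.02 without it.

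The same lists were read in rats given 1 of the drugs. All 3 treatments are set against the same NaCl/D5W rats, so their differences from vehicle are not independent of each other. With topotecan/D5W 1200 of 7810 genes (15.4%) rose and 2350 (30.1%) fell, and with NaCl/oxaliplatin 464 (5.94%) rose and 921 (11.8%) fell. The median of the mitosis list was -1.35 in the combination, -1.31 in topotecan/D5W and -0.30 in NaCl/oxaliplatin. For the replication list the same medians were -1.11, -1.04 and -0.47. P53 targets had medians of 0.79, 0.53 and 0.74, and 13, 9 and 12 of 18 rose. Hspa1a stood 5.13 above vehicle in the combination, 4.25 in topotecan/D5W and 0.58 in NaCl/oxaliplatin, and Gdf15 stood 4.26, 3.64 and 4.49 above. The Hspa1a levels of the topotecan/D5W rats were widely spread, at 8.38 to 13.38 (SD 2.32).

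Tested directly, topotecan/oxaliplatin differed from NaCl/oxaliplatin in 221 probe sets, 96 higher and 125 lower. Without a minimum fold 4.31% of genes were higher and 15.1% lower. On the mitosis list 42 of 45 genes differed, all lower in the combination, and on the replication list 44 of 49, all lower. Of the heme and iron list 12 of 20 were lower. Hspa1a was higher by 4.54 ± 0.60 (adjusted p = 2.47e-07), Ccl2 by 2.35, Timp1 by 2.12, H3c1 by 2.04 and Fst by 2.03. Bex4 (-2.50), Car1 (-2.09), Spint1 (-1.92), Mgst3 (-1.74) and Diaph3 (-1.64) were the 5 leading genes lower than in NaCl/oxaliplatin. Of the p53 targets 2 differed, Ddb2 (-0.58) and Ei24 (-0.27).

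Against topotecan/D5W 21 probe sets differed, 2 higher and 19 lower; without a minimum fold 0.115% of genes were higher and 1.14% lower. Most lists had no member that differed. The exceptions were Srxn1, higher by 0.72 ± 0.13 (adjusted p = 0.000483), and Bcl11a (-0.88), Pparg (-0.79), Ebf1 (-0.75) and Prkdc (-0.60). Hspa1a was 0.88 ± 0.60 higher than in topotecan/D5W and Cdkn1a 0.59 ± 0.23 higher, and neither passed (adjusted p of 0.671 and 0.259). The probe sets of Il1rl1, the receptor for Il33, disagreed. The dimmer of 2 was at 5.25, 5.64, 5.52 and 5.19 in vehicle rats and at 7.07, 8.44, 9.08 and 8.45 in the combination, 1.43 above topotecan/D5W (adjusted p = 0.0012). The brighter was at a mean of 7.88 in vehicle rats, 8.35 in the combination and 8.46 in topotecan/D5W, where the difference from topotecan/D5W was -0.11 (adjusted p = 0.926).

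The genes lower than in topotecan/D5W were long. Genes past the threshold with a symbol were Ebf1, Rbms3, Camk2d, Plcb1, Eps8, Bank1, Wdfy4, Slc8a1, Vav2 and Arhgap24, 10 in all, and they span 169.4 to 786.9 kb of the genome. Without a minimum fold 89 genes were lower, and 83 of them (93.3%) span over 50 kb. Of the 322 genes over 200 kb, 49 (15.2%) were lower (30 to 47 with 1 rat left out, the fewest without topotecan/D5W animal 33), against 25 of 731 (3.42%) at 100 to 200 kb and 1 of 1958 (0.0511%) under 10 kb. Their median difference from topotecan/D5W was -0.24 over 200 kb and 0.03 under 10 kb. Genes are not independent samples, so these shares are given as a description.

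Levels in each rat follow for single genes. Camk2d, Plcb1, Wdfy4 and Rbms3 were named as leading genes with no overlap between the combination and topotecan/D5W. Their separation from topotecan/D5W was thus required by the rule and adds no evidence for the pattern. Camk2d, a calcium-dependent kinase of 263.6 kb, was at 8.66, 8.56, 8.89 and 8.70 in topotecan/oxaliplatin. In topotecan/D5W it was at 9.93, 10.22, 10.57 and 10.11, and in NaCl/D5W at 9.33, 9.78, 10.30 and 10.30. The highest combination rat was below the lowest rat of both of these groups (-1.50 ± 0.17 against topotecan/D5W, adjusted p = 1.04e-07). In NaCl/oxaliplatin Camk2d was at 9.26, 9.01, 9.42 and 9.31, a difference of -0.68 from vehicle (adjusted p = 0.00224). The combination did not differ from NaCl/oxaliplatin at the threshold (-0.54 ± 0.17, adjusted p = 0.0121). Plcb1, a phospholipase of 711.3 kb, was at 6.17, 5.75, 6.20 and 6.04 in the combination and at 7.51, 7.36, 7.70 and 7.27 in topotecan/D5W. It was also low with oxaliplatin alone, at 6.12, 6.37, 6.87 and 6.35, and the combination did not differ from that group at the threshold (-0.39 ± 0.16, adjusted p = 0.0664). Wdfy4, a protein of antigen-presenting cells spanning 228.6 kb, was at 7.71, 7.34, 7.94 and 7.50 in the combination, at 8.57, 8.62, 9.02 and 8.77 in topotecan/D5W and at 8.36, 8.41, 8.57 and 8.29 in NaCl/oxaliplatin. Here the combination was below either drug alone (-1.12 ± 0.14 and -0.78 ± 0.14, adjusted p of 1.09e-06 and 4.22e-05). Rbms3, an RNA-binding protein of 786.9 kb, had its main excess in topotecan/D5W, at 6.95, 7.27, 7.52 and 7.28, while the combination (6.05, 5.95, 5.31 and 5.61) lay near vehicle (5.77, 6.26, 6.40 and 6.18). For Ebf1, the B cell factor, 3 probe sets disagreed in size, with changes from vehicle of -2.32, -1.64 and -0.44, the last from the probe set of highest mean.

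The sample codes of topotecan/D5W and NaCl/D5W lie in code columns 5 and 7 of the records and those of topotecan/oxaliplatin in columns 6 and 8, so code column and treatment cannot be told apart in this comparison. Rats given D5W before topotecan (D5W/topotecan) have codes in columns 6 and 8. Against them 31 probe sets differed, 2 higher and 29 lower, of which 18 were among the 21 above; without a minimum fold 0.179% of genes were higher and 1.73% lower. Of the 322 genes over 200 kb, 76 (23.6%) were lower than in D5W/topotecan, and Camk2d was lower by 1.59 ± 0.18 (adjusted p = 4.16e-10). In that group topotecan was the second infusion, so its drug was given nearer to sampling.

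**Figure D3:**
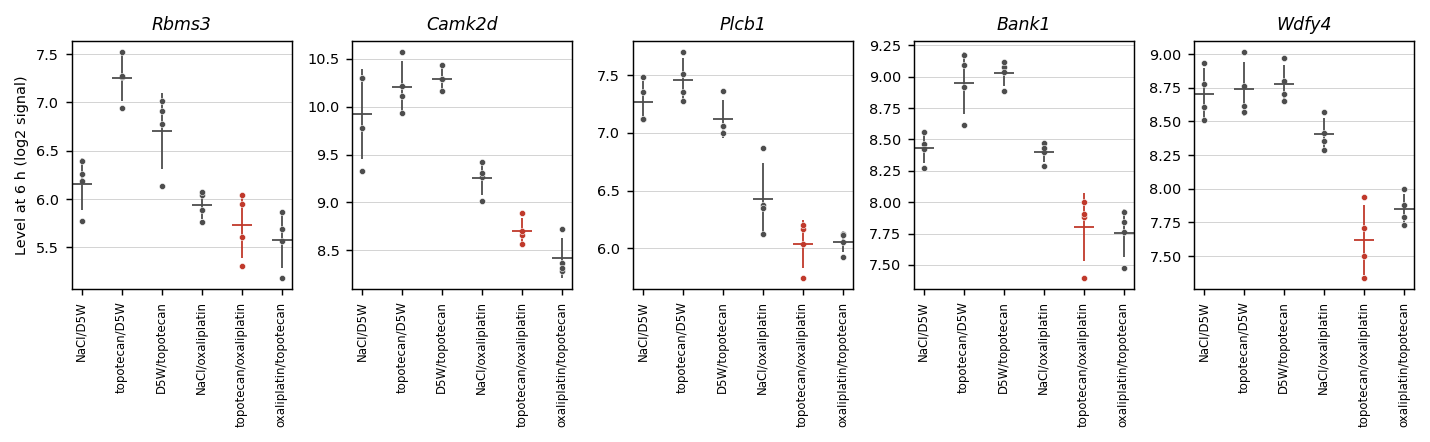
Level at 6 h (log2 signal) of 5 long genes in 6 groups of 4 rats; points are rats, horizontal ticks are means, vertical bars are 1 SD and topotecan/oxaliplatin is red. Camk2d lies at 8.56 to 8.89 in topotecan/oxaliplatin and at 9.93 to 10.57 in topotecan/D5W. The rule that picked the 5 genes required that these groups do not overlap.

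Across time, long genes were lowest at 1 h. The median difference of genes over 200 kb from vehicle was -0.79 at 1 h, -0.29 at 6 h and 0.23 at 24 h in the combination, and genes under 10 kb were at 0.03, -0.09 and -0.07. At 1 h 228 of the 322 longest genes (70.8%) were lower than in vehicle and 5 higher, at 6 h 141 (43.8%) and 32, and at 24 h 76 (23.6%) and 143. At 6 h the same genes had a median of -0.04 in topotecan/D5W, where 73 (22.7%) were lower, against 30.1% of all genes. In NaCl/oxaliplatin their median was -0.13 and 74 (23%) were lower, against 11.8% of all genes. In the reverse order of the drugs, oxaliplatin/topotecan against D5W/NaCl, the median was -0.50 and 190 (59%) were lower. Among genes named for the largest differences between the responses at 6 h and 1 h, Ankrd44, of the ankyrin repeat family, returned toward vehicle. Its difference from vehicle was -3.67 at 1 h and -0.19 at 6 h. The responses differed by 3.48 (adjusted p = 8.51e-15 by limma), and a large difference was what the rule picked it for. Its span is not given here.

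**Figure D4:**
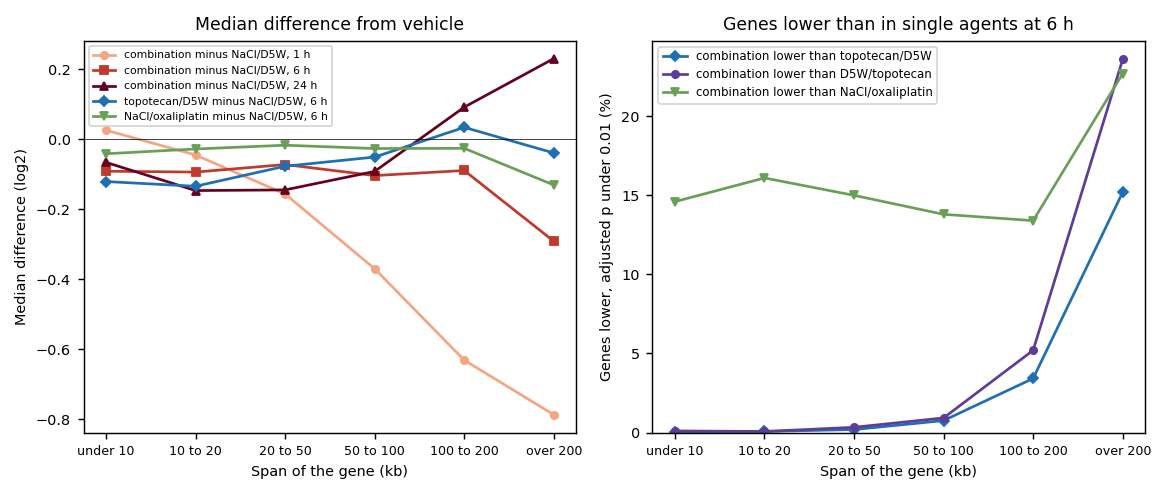
Left, median log2 difference from NaCl/D5W of the same time for genes in 6 bins of genomic span (kb); right, percent of genes in each bin that were lower in topotecan/oxaliplatin than in a single-agent group at 6 h (adjusted p under 0.01). Over 200 kb the medians of the combination are -0.79 at 1 h, -0.29 at 6 h and 0.23 at 24 h, and the shares on the right rise to 15.2% and 23.6% against the topotecan groups.

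The response at 6 h was tested against those at 1 and 24 h, each set against vehicle rats of its own time. Vehicle and combination rats lay in separate code columns at 1 h, as at 6 h, but shared columns at 24 h, where the code prefix differed. An effect of code column therefore cannot be told apart from time between 6 and 24 h. At 1 h 732 genes (9.37%) rose and 2831 (36.2%) fell, and at 24 h 2210 (28.3%) rose and 2824 (36.2%) fell. The response differed between 6 h and 1 h in 891 probe sets, and without a minimum fold in 28.7% of genes. It differed between 24 h and 6 h in 955 probe sets, and in 25.2% of genes.

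Between 1 and 6 h the cell cycle lists moved: 40 of 49 replication genes and 34 of 45 mitosis genes had a different response, and their medians went from -0.43 and -0.47 to -1.11 and -1.35. Mmp12 (0.54 at 1 h, 5.49 at 6 h), Tagln (-0.36 and 3.74), Akr1b8 (0.84 and 4.18) and Hspa1a (0.62 and 5.13) stood higher at 6 h than at 1 h. For Tagln the vehicle level moved too, with a mean of 8.06 at 1 h and 7.36 at 6 h in NaCl/D5W. In D5W/NaCl at 6 h it was 8.27. For Hspa1a at 1 h the vehicle rats were spread, at 6.87 to 9.54 (SD 1.23), and the treated rats were at 8.07 to 8.58. The median of the heat shock list was -0.51 at 1 h, when none of 20 rose and 11 fell, and 12 of 20 differed between the times. P53 targets went the other way, with a median of 1.72 at 1 h and 0.79 at 6 h, and 7 of 18 differed. Mdm2 stood 1.92 above vehicle at 1 h, 1.03 at 6 h and 0.31 at 24 h, while Cdkn1a stood at 3.04, 2.42 and 3.17. H1f10 (1.01 to -1.13) turned from higher to lower. For Chac1 the difference was 1.47 at 1 h and -0.91 at 6 h, where it did not pass (adjusted p = 0.0124). Its mean vehicle level was 7.77 at 1 h, 8.80 at 6 h and 7.58 at 24 h, and that in the combination was 9.23, 7.89 and 7.71.

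Between 6 and 24 h the red cell, matrix and interferon genes moved. Of the membrane and skeleton genes of erythrocytes 17 of 18 had a different response, the median went from -0.48 to -2.24, and all 18 were lower than vehicle at 24 h. The water and glycerol channel Aqp3 stood at -0.64 against vehicle at 6 h and at -4.38 at 24 h, and Rhag, of the Rh complex, at -0.64 and -3.77. Sox6, an erythroid factor, stood at -2.69 at 1 h, -0.64 at 6 h and -4.49 at 24 h. Of the interferon list 21 of 40 differed, and 36 rose at 24 h (median 1.99). Collagens and matrix went from a median of 0.94 to 2.03, and 22 of 30 differed. Fcnb fell on, from -1.66 to -4.06, and Ccr2 from -1.42 to -3.25. Stab2 stood at -1.32 at 6 h and at 0.62 at 24 h. Of the immediate early list 3 of 25 had a different response.

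**Figure D5:**
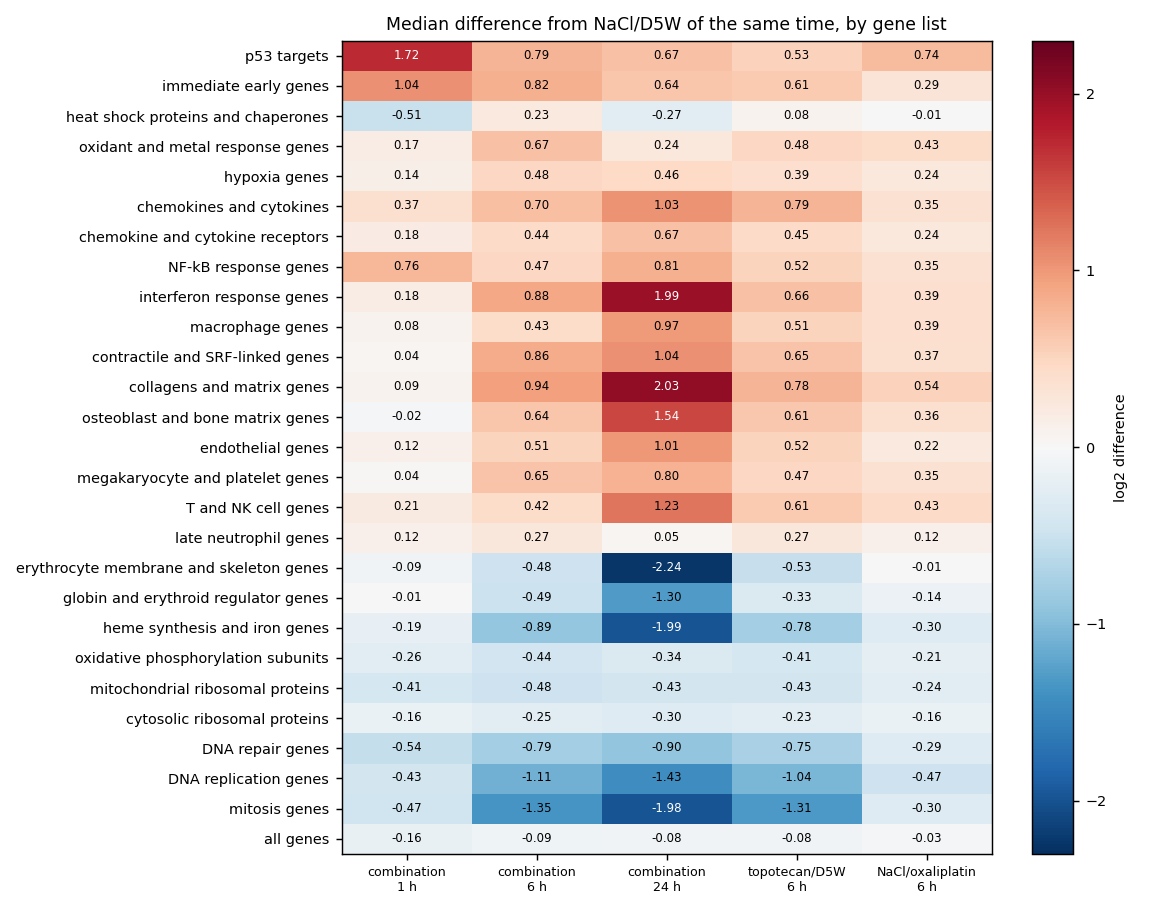
Median log2 difference from NaCl/D5W of the same time for 26 gene lists and all genes, in topotecan/oxaliplatin at 1, 6 and 24 h and in the single agents at 6 h; red is higher and blue lower than vehicle. The column of topotecan/D5W at 6 h is close to that of the combination (mitosis -1.31 and -1.35), and the erythrocyte membrane list reaches -2.24 at 24 h.

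Rats given the drugs in the reverse order were compared last. Oxaliplatin followed by topotecan changed 485 probe sets upward and 586 downward against its own vehicle group, D5W/NaCl. A single probe set had a different response between the orders, that of Lpin1, a phosphatidate phosphatase, at an adjusted p of 0.00109, while 1081 had an unadjusted p under 0.05. Lpin1 was at 8.54, 8.87, 8.57 and 8.58 in NaCl/D5W and at 9.52, 9.60, 9.49 and 9.28 in topotecan/oxaliplatin, 0.83 higher, and after the reverse order its difference from vehicle was -0.23. A second Lpin1 probe set differed by 1.15 (adjusted p = 0.015). Hspa1a differed by 2.57 ± 0.88 between the orders without passing (adjusted p = 0.313). The vehicle groups differed from each other in 0 probe sets by limma, with 292 at an unadjusted p under 0.05.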

How the data were processed

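RNA of left femur marrow (RNA integrity number of at least 7.5) was read on Affymetrix Rat Genome arrays, 1 per rat. The authors summarized the arrays by RMA, which corrects background, quantile-normalizes and gives log2 values, and kept probe sets with shared signal among their probes, so the deposited log2 table holds 12560 rows for 93 arrays. After 28 array controls were left out, 12532 probe sets were tested, of which 10002 have 1 gene symbol in the platform annotation, 292 several and 2238 none. Of several probe sets for one of the 7810 genes, that with the highest mean of the 93 arrays was used.

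limma 3.58.1 (R 4.3.3; lmFit, contrasts.fit, eBayes) was fitted over 47 arrays in 12 groups, both vehicles, each drug alone and topotecan/oxaliplatin at 1, 6 and 24 h; the order of the drugs and D5W/topotecan used all 93 arrays. Adjusted p-values are over all probe sets of a contrast. SEs are those of the fit. Lists hold members counted at an adjusted p under 0.01 without a minimum fold. The 15 rising and 15 falling genes of largest change whose groups do not overlap were named, 5 a direction in the other contrasts, and members of 42 lists. The members and lists were chosen with earlier results of these data known. Promoters and gene spans are from RefSeq (GRCr8), with 7791 genes given a span. Of the 1713 genes with more than 1 probe set, 6 had one that rose and another that fell. Alternatives were other arrays, vehicles, scalings, thresholds and probe sets, and each rat left out. The scripts were tested on simulated data. Array data carry no read depth, and 4 rats a group limit the precision. The records do not say more of the animals' independence than 1 array per rat.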

Additional observations from a re-analysis of the deposited data

Results flagged for a closer look

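In groups of 4 rats, a rat was singled out when its gap to the nearest other rat took up most of the range of its group (Dixon's 95% criterion), which chance does in about 1 of 20 groups; 9 of 144 groups of 4 were. For mean list levels on the log2 scale these were the p53 targets in vehicle animal 10 (8.70, others 8.51 to 8.53), the heat shock list in vehicle animal 3 (9.78, others 9.84 to 9.85), the heme and iron list in topotecan/oxaliplatin animal 58 (10.66, others 10.75 to 10.76) and the endothelial list in topotecan/oxaliplatin animal 57 (8.91, others 8.71 to 8.74). The skeletal muscle list in topotecan/oxaliplatin animal 52 was at 10.03, with the others of its group at 6.16 to 6.26. For single genes they were Ccn2 in vehicle animal 3 (9.26), Atf3 in vehicle animal 4 (5.65), Pklr in vehicle animal 9 (8.66) and Mnd1 in topotecan/oxaliplatin animal 52 (6.66).

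The response to topotecan/oxaliplatin differed between 6 h and 1 h in 891 probe sets by limma's test of the difference. The log2 difference from vehicle was higher at 6 h than at 1 h by 4.95 for Mmp12, 4.51 for Hspa1a, 4.10 for Tagln, 3.48 for Ankrd44 and 3.34 for Akr1b8. For Ankrd44 this was a return toward vehicle, from -3.67 at 1 h to -0.19 at 6 h. The same difference was -2.38 for Chac1, -2.23 for Bex4, -2.21 for Spint1, -2.15 for H1f10 and -2.03 for Mgst3.

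Between 24 h and 6 h the response differed in 955 probe sets. The log2 difference from vehicle was higher at 24 h by 2.90 for Crym, 2.89 for Abi3bp, 2.84 for Adamts9, 2.67 for Ifi44l and 2.65 for Zfp423. The difference was -3.85 for Sox6, -3.75 for Aqp3, -3.23 for Plek2, -3.13 for Rhag and -2.86 for Ypel4. Between the 2 orders of the drugs, the response of Lpin1 differed by 1.06.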

How the results depend on the processing

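All 30 leading genes kept their direction and an adjusted p under 0.01 in each of the 420 values under the alternatives run. Of 640 single genes, 8184 of 8960 values kept both, 772 lost the threshold and 4 changed sign, all 4 with the probe set of highest variance (Foxp1 0.0039, Myh1 0.80, Rpl7 0.33, Rps24 0.68). The probe sets higher and lower numbered 1258 and 1654 with a fold above 1.5, and 140 and 253 among probe sets above the median of the mean signal, where fewer were tested. Leaving out 1 rat gave 416 to 506 higher and 493 to 559 lower. Against topotecan/D5W, 16 to 32 probe sets differed with 1 rat left out (32 without topotecan/D5W animal 27). Genes over 200 kb lower than in topotecan/D5W numbered 30 to 47 with 1 rat left out (30 without topotecan/D5W animal 33), and 76 against D5W/topotecan, a comparison chosen after seeing the data. Between the orders 3 probe sets differed at an adjusted p under 0.05. At an adjusted p under 0.01, 1 differed with all rats and 0 to 6 with 1 rat left out. The number was 0 without D5W/NaCl animal 15 or oxaliplatin/topotecan animal 70. It was 2 without NaCl/D5W animal 10 or D5W/NaCl animal 16, and 6 without oxaliplatin/topotecan animal 64. Of 616 list counts 48 moved by over 1.5 times, 33 of them with 2 against 2 rats. No paired analysis was possible because groups share no animal numbers. A fit of the 8 arrays with code columns 5 and 6 against 7 and 8 as a block, which pairs no rats, gave 445 higher and 521 lower. The number of rats limits all results, and code column and treatment cannot be told apart against vehicle at 1 and 6 h.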
